A study of Danio rerio with 9 samples.

Results

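Genes of the kinetochore, the spindle checkpoint, the Aurora and Polo-like kinases, cohesin, condensin and the anaphase-promoting complex were examined in zebrafish embryos of 3 ploidies. They were taken by gene symbol: a locus was included when any of its symbols began with a fixed set of stems, such as cenp, plk1 to plk4, smc1 to smc6, ncap or anapc. The rule found 79 of the 30702 loci in the deposited gene tables. Of these, 36 had a mean level of at least 1 FPKM over the 9 libraries and are called measured here, and 43 did not. FPKM is fragments per kilobase of transcript and per 1e+06 mapped fragments, so levels can be set side by side between genes. None of the 36 measured genes differed between ploidies at an adjusted p under 0.05 in limma. Among all 5881 genes tested, 0 or 1 did in each comparison (0% to 0.017%), so this result is not particular to these genes.

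The libraries were made from whole embryos at 3 hours after fertilization (hpf), a blastula stage at which most messenger RNA was still supplied by the mother. There were 3 haploid, 3 tetraploid and 3 diploid (control) libraries. Every sample carries the same parental labels, a TJH female and a Tu male. The labels cite a published method for making the haploid and tetraploid embryos, without its steps, and give neither the number of embryos in a library nor whether replicates came from separate clutches. The p-values below therefore measure the spread between these libraries, which may be technical.

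These genes make the machinery that divides a replicated genome. Cohesin rings hold sister chromatids together after replication, condensin compacts them for mitosis, and the kinetochore, built on the centromere, attaches them to spindle microtubules. The spindle checkpoint holds back the anaphase-promoting complex (APC), a ubiquitin ligase, until attachments are made, and the ligase then releases separase, which cuts cohesin. Aurora and Polo-like kinases act at centrosomes, centromeres and the central spindle throughout these steps. In the early fish embryo, cleavages are rapid and run largely on maternal RNA and protein, so transcripts of this machinery are plentiful before the embryo's own genome is widely transcribed.

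The measured genes did not cover each machine evenly. The condensins had 6 of 8 loci measured, namely smc2, smc4, ncapg, ncaph, ncapg2 and ncaph2, while ncapd2 and ncapd3 were unmeasured. The APC had 7 of 14 measured, and its activator cdc20 was among the unmeasured. The centromere and inner kinetochore group, made of all cenp symbols but cenpe and cenpf, had 4 of 10. Its unmeasured loci included cenpj and cenpv, placed there by their symbols. The outer kinetochore with its motors had 5 of 11, the Aurora and passenger group 3 of 4, and the Polo-like kinases 2 of 5. Coverage was lower for the spindle checkpoint, with 2 of 6 loci, and for cohesin and separase, with 3 of 11. The unmeasured genes there included bub1, bub3, mad1l1, mad2l1, smc3, stag2a and espl1, which encodes separase. Both CDC25 phosphatase loci were unmeasured, and no locus carried the symbols incenp or cenpa.

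Whether a gene was measured followed the numbering of loci in the files. On each chromosome, locus numbers rise with position, restart once and rise again, which makes a first and a second run of loci. In the first run 36 of 40 loci of this machinery were measured (90%), against 38.5% of all first-run loci. In the second run 0 of 39 were measured, against 0.283% of all second-run loci. The second run held ndc80, nuf2, mis12, bub1, mad2l1, smc3, aurkb and cdc20, so these were treated as unmeasured and not as silent. The 4 first-run genes below 1 FPKM were stag3 (mean 0.283 FPKM), plk2a (0.133), smc1a (0.0189) and plk2b (0.00988). The lowest measured gene was stag1a, with a mean of 1.21 FPKM as deposited.

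**Figure D1:**
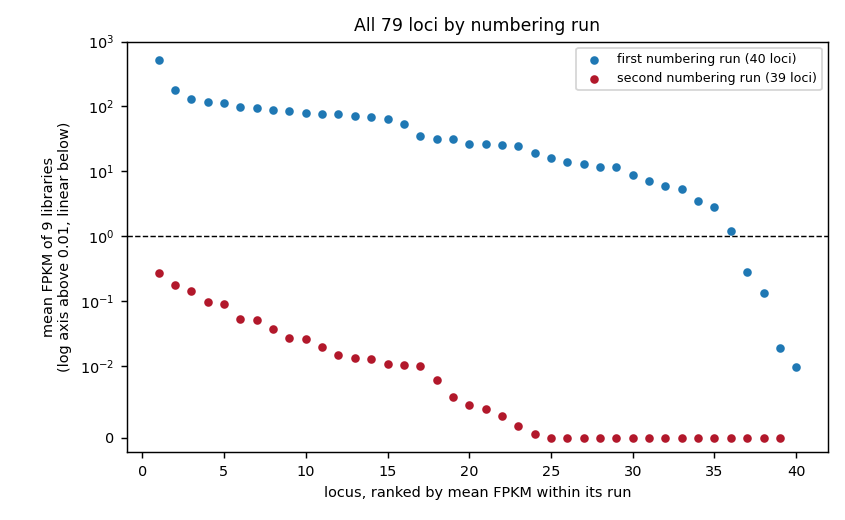
Mean FPKM over the 9 libraries (log axis above 0.01, linear below) of the 79 loci, ranked within the first and the second run of locus numbers, with a dashed line at 1 FPKM. In the first run 36 of 40 loci lie above the line, and in the second run 0 of 39 do, with 15 of them listed at 0 in every library.

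Tetraploid replicate 3 stood apart from the other 8 libraries. Its scaling factor was 0.8008 (1.0092 to 1.0563 in the others), it had 5395 loci with at least 1 FPKM (5809 to 5921), and mitochondrial loci took 14.74% of its summed FPKM (18.23% to 26.75%). Unless stated, results below rest on levels scaled by these factors. Many, but not all, of the tetraploid differences that tetraploid replicate 3 moves are given with and without this library. Markers of early embryos were abundant in all libraries: the 7 measured of 11 maternal and early loci summed to 2348 to 2935 scaled FPKM in haploid, 2721 to 2861 in tetraploid and 2477 to 2606 in diploid libraries. The maternal activator nanog was at 835 to 1160 and buc, a germ plasm organizer, at 257 to 394. None of 11 later-tissue loci was measured. Their sums were 0 to 0.741 in haploid, 0 in tetraploid and 0 to 0.934 in diploid libraries. Of the 11, 8 lie in the second run of locus numbers, so their lack of signal is not read as silence. Of the enveloping layer, 1 of 7 loci was measured (grhl3), with sums over the 7 of 0.341 to 1.5 in haploid, 0.377 to 1.53 in tetraploid and 0.533 to 14.9 in diploid libraries, the highest in diploid replicate 1. Of the yolk syncytial layer, 2 of 5 were measured (mxtx2, apoeb). Sums over the 5 were 0.235 to 5.84, 1.85 to 4.46 and 2.56 to 19.8 in that order, the highest again in diploid replicate 1. The second run also holds 5 of the 7 enveloping layer loci and 2 of the 5 yolk syncytial layer loci.

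Levels of the measured genes spanned a wide range, set more by the gene than by the ploidy. The median of the 36 genes was 31.4 scaled FPKM over the 8 libraries other than tetraploid replicate 3, against 11.8 over all 5881 genes tested. Over those 8 libraries the coefficient of variation, not matched for level, had a median of 11.5% for these genes and 18% for all genes tested. It was lowest for cdc27 (4.86%), cenpn (5.07%) and ncapg (5.56%), and highest for smc6 (47.2%), anapc13 (41.4%) and knstrn (35.2%), which are mostly genes of low level. Deposited intervals were narrow for abundant genes, with upper bounds 3.91% to 4.43% above the value for plk1. They were wide for scarce ones, with 39.4% to 95.6% for smc6.

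**Figure D2:**
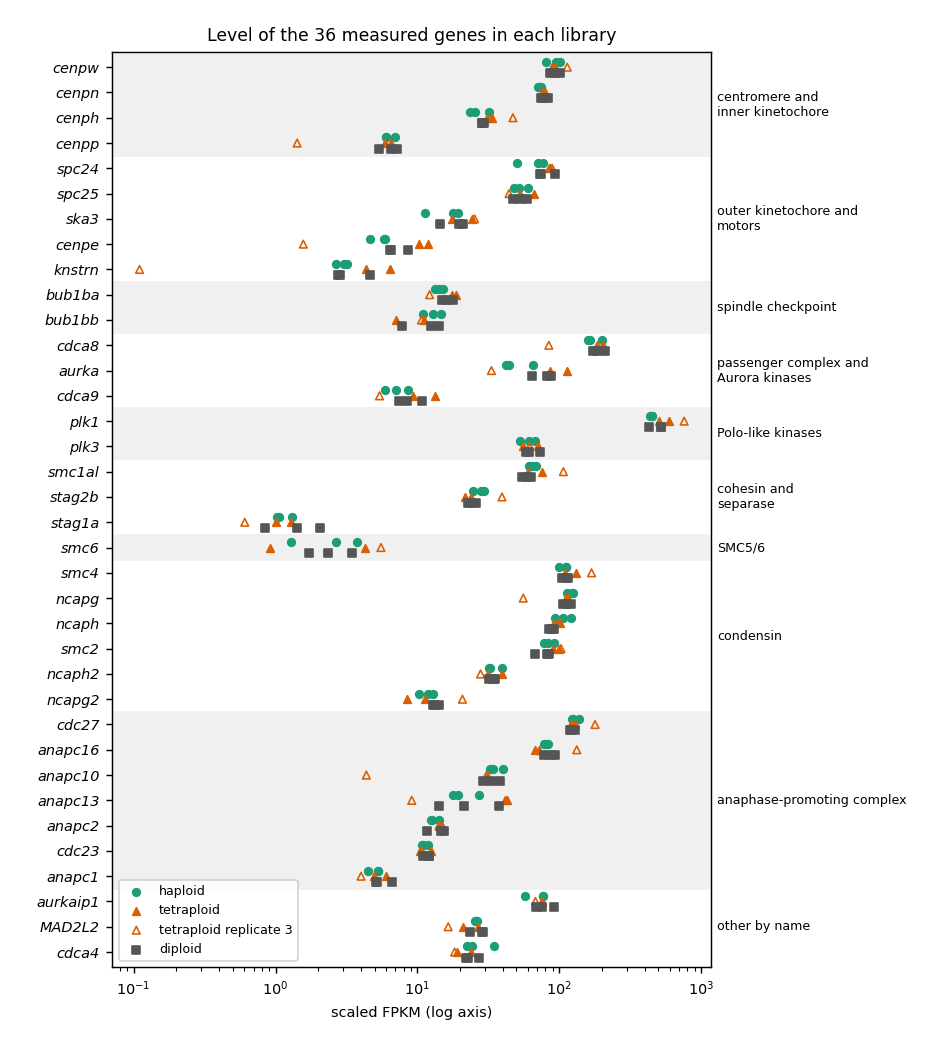
Scaled FPKM (log axis) of the 36 measured genes in each library, grouped by role, with haploid, tetraploid and diploid libraries as separate symbols and tetraploid replicate 3 as an open triangle. Means run from 1.18 for stag1a to 519 for plk1, and the open triangle often lies away from the other 8 points, as for knstrn at 0.11.

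The Polo-like kinases included the most abundant gene of the set. plk1, on chromosome 1 from 8469029 to 8477732 (GRCz10), encodes the kinase that drives mitotic entry, centrosome maturation and kinetochore function. Its levels were 454, 440 and 449 scaled FPKM in haploid, 506, 596 and 760 in tetraploid, and 519, 518 and 432 in diploid libraries, which placed it 41st among genes tested. All 3 tetraploid libraries lay above all 3 haploid ones, and the diploid libraries overlapped both. The tetraploid minus haploid difference was 0.45 ± 0.16 (log2, SE), the smallest p among these genes in that comparison (0.0196 before adjustment), with an adjusted p of 0.563 in limma with Benjamini-Hochberg adjustment over all genes tested. Without tetraploid replicate 3 it was 0.30 (adjusted p = 0.456). The paralog plk3, a stress-linked kinase in mammals, was at 67.7, 52.6 and 61.5 in haploid, 55.7, 71 and 62 in tetraploid and 61.5, 58.7 and 72.7 in diploid libraries, with all groups overlapping. plk1 stood 5.94 to 12.3 times above plk3 in the 9 libraries.

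In the Aurora and passenger group, the most abundant gene was cdca8, on chromosome 19 from 48144550 to 48154856, which encodes borealin, a subunit of the chromosomal passenger complex. Its levels were 159, 165 and 201 in haploid, 184, 204 and 84.5 in tetraploid and 186, 209 and 173 in diploid libraries. All but tetraploid replicate 3 lay between 159 and 209. aurka, on chromosome 6 from 60130131 to 60144746, encodes the Aurora kinase of centrosomes and spindle poles. It was at 44, 42.4 and 65.2 in haploid, 86.7, 113 and 33.3 in tetraploid and 81.4, 63.9 and 87.6 in diploid libraries. The first 2 haploid libraries were below every diploid one and the third lay inside the diploid range, while 2 tetraploid libraries were high and the other was the lowest of all 9.

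The haploid minus diploid difference of aurka was -0.62 ± 0.39 (log2, SE), with a 95% interval of -1.49 to 0.25 and an adjusted p of 1 in limma. The authors' deposited table, with 1 pooled value per ploidy, gives aurka as 123.3 FPKM in haploids, 184.2 in tetraploids and 183.2 in diploids. Their second table of pooled values gives 128.8, 181.9 and 169.2 in the same order. Without tetraploid replicate 3, which also sets the spread in the shared fit, the haploid minus diploid difference was -0.63 with an unadjusted p of 0.0121 and an adjusted p of 0.942. The tetraploid minus haploid difference was 0.47 ± 0.39 with all libraries and 0.99 ± 0.22 without that library, with adjusted p of 0.755 and 0.393.

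Of the inner kinetochore group, as taken by symbol, 4 genes were measured. cenpn, on chromosome 18 from 29920700 to 29927756, encodes a subunit that reads the centromeric nucleosome. It was at 71.3, 74.8 and 72.1 in haploid, 77.5, 78.8 and 76.8 in tetraploid and 77.1, 83.3 and 74.9 in diploid libraries. Haploid libraries were all below the others, and tetraploid and diploid libraries overlapped, but the haploid minus diploid difference was only -0.11 ± 0.11 (log2, SE; limma adjusted p = 1). The locus that carries cenpw also carries rspo3 and a placeholder symbol, so its reads cannot be assigned, and it gave 102, 80.9 and 95.3 in haploid, 93.3, 89.5 and 114 in tetraploid and 94, 102 and 86.5 in diploid libraries, with all groups overlapping.

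cenph, on chromosome 8 from 17132163 to 17137982, encodes another subunit of the constitutive centromere network. Its levels were 31.8, 23.6 and 25.6 in haploid, 31.2, 33.8 and 47.2 in tetraploid and 29.5, 28.5 and 28.6 in diploid libraries. The tetraploid libraries were all above the diploid ones, and 1 haploid library lay inside the tetraploid range. The tetraploid minus diploid difference was 0.34 ± 0.18 and the tetraploid minus haploid one 0.44 ± 0.18 (adjusted p of 0.833 and 0.636 in limma), and without tetraploid replicate 3 they were 0.16 and 0.27. cenpp was at 6.95, 6.04 and 6.02 in haploid, 5.88, 6.55 and 1.42 in tetraploid and 6.57, 5.33 and 7.2 in diploid libraries. The tetraploid minus diploid difference of cenpp was -0.55 with all libraries and -0.02 without tetraploid replicate 3, its lowest library.

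Of the outer kinetochore, the NDC80 complex subunits spc24 and spc25 were measured and ndc80 and nuf2 were not. spc24, on chromosome 3 from 19206128 to 19214241, was at 71.2, 50.3 and 77.5 in haploid, 84.2, 86.5 and 89.3 in tetraploid and 72.7, 92.7 and 74.7 in diploid libraries. The tetraploid libraries lay close together above every haploid one and within the diploid range. The tetraploid minus haploid difference was 0.40 ± 0.17 (log2, SE; unadjusted p = 0.0446, limma adjusted p = 0.643). It was 0.39 without tetraploid replicate 3, with an unadjusted p of 0.0711. Its partner spc25 was at 51.7, 47.9 and 60.2 in haploid, 66, 52.9 and 44.3 in tetraploid and 52.5, 59.5 and 47.2 in diploid libraries, with all groups overlapping. spc24 exceeded spc25 in 9 of 9 libraries, by 1.05 to 2.01 times. ska3, of the complex that couples kinetochores to microtubule ends, averaged 16.2 ± 4.27 in haploid, 22.4 ± 4.19 in tetraploid and 18.4 ± 3.43 in diploid libraries (SD, n = 3 each).

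cenpe, a kinesin that carries chromosomes to the spindle equator, and knstrn, a spindle and kinetochore adaptor, are described per library because of their spread, which was seen first. cenpe was at 4.66, 5.92 and 5.82 in haploid, 10.2, 11.9 and 1.57 in tetraploid and 6.44, 8.62 and 6.56 in diploid libraries. Haploid libraries were all below diploid ones, 2 tetraploid libraries were the highest of the 9 and the third was the lowest. knstrn was at 2.65, 3.06 and 3.21 in haploid, 4.37, 6.45 and 0.11 in tetraploid and 2.84, 2.76 and 4.61 in diploid libraries. Over the 9 libraries the upper bound of its deposited interval lay 20.9% to 200% of the value above it. A level as low as 0.11 may therefore be poorly fixed. Without this library the tetraploid minus diploid differences of cenpe and knstrn were 0.57 and 0.55 (log2), against -0.18 and -0.29 with it, and no adjusted p was under 0.92.

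The measured spindle checkpoint genes taken by symbol were bub1ba and bub1bb, named as forms of bub1b, whose product BubR1 inhibits the APC. bub1ba was at 15.1, 13.4 and 14.3 in haploid, 17.5, 18.8 and 12.2 in tetraploid and 15, 16.1 and 17.7 in diploid libraries. bub1bb was at 14.7, 11 and 12.9 in haploid, 7.08, 11.1 and 10.7 in tetraploid and 12.4, 7.84 and 14.2 in diploid libraries. All groups of both genes overlapped, although tetraploid replicates 1 and 2 of bub1ba exceeded every haploid library. bub1ba exceeded bub1bb in 9 of 9 libraries, by 1.03 to 2.47 times, though reads of near-identical stretches of such paralogs could have been split between them.

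Cohesin was represented by smc1al and by the stag genes, which encode a regulatory subunit of the ring. smc1al, on chromosome 23 from 13084002 to 13141499, encodes an SMC1 arm of the ring. It was at 61.6, 64 and 68.4 in haploid, 75.6, 60.6 and 107 in tetraploid and 62.8, 54.9 and 59 in diploid libraries. Tetraploid replicate 3 was highest and tetraploid replicate 2 lay inside the diploid range. The tetraploid minus diploid difference was 0.42 ± 0.19 (log2, SE; limma adjusted p = 0.833), and 0.20 without tetraploid replicate 3. stag2b was at 29.4, 28.1 and 24.7 in haploid, 23.9, 21.7 and 39.5 in tetraploid and 25.9, 22.9 and 23.8 in diploid libraries, with all groups overlapping. stag1a was scarce, at 1.13 ± 0.156, 0.967 ± 0.342 and 1.44 ± 0.603 in the same order (SD, n = 3 each), and stag2b stood 11.6 to 65.1 times above it. smc6, of the repair-linked SMC5/6 complex, was at 1.29, 2.68 and 3.75 in haploid, 4.26, 0.916 and 5.54 in tetraploid and 2.36, 3.45 and 1.73 in diploid libraries, a spread within groups that covered every difference between them.

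Condensin I has its own subunits, among them ncapg and ncaph, and condensin II has ncapg2 and ncaph2, while both use smc2 and smc4. The condensin I genes were the more abundant in 9 of 9 libraries: ncaph stood 2.42 to 3.6 times above ncaph2. ncapg stood 8.19 to 13.7 times above ncapg2 in 8 libraries and 2.68 times in tetraploid replicate 3. ncapg, on chromosome 1 from 22868738 to 22882491, was at 123, 125 and 114 in haploid, 116, 112 and 55.8 in tetraploid and 122, 113 and 106 in diploid libraries. All but tetraploid replicate 3 lay between 106 and 125, and the tetraploid minus diploid difference of -0.33 became 0.01 without that library.

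smc4, on chromosome 15 from 1569734 to 1608220, was at 99.6, 112 and 111 in haploid, 132, 109 and 169 in tetraploid and 113, 115 and 104 in diploid libraries, and tetraploid replicate 2 lay among the other groups. The locus with smc2, which also carries a placeholder symbol, was at 78.3, 91.8 and 83.3 in haploid, 100, 90.8 and 103 in tetraploid and 85.2, 82.7 and 67.7 in diploid libraries. Here every tetraploid library was above every diploid one, and the haploid libraries overlapped both. Its tetraploid minus diploid difference of 0.32 ± 0.13 (log2, SE) had an unadjusted p of 0.0377 and a limma adjusted p of 0.833. It was 0.28 without tetraploid replicate 3, with an unadjusted p of 0.0555. ncaph was at 107, 121 and 93.4 in haploid, 102, 92.1 and 100 in tetraploid and 91.6, 84.9 and 88.9 in diploid libraries, so both other ploidies lay above the diploid libraries. Its haploid minus diploid difference was 0.27 ± 0.13, with an unadjusted p of 0.0626 and an adjusted p of 1.

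The APC genes ranged from cdc27, a scaffold arm of the ligase, to anapc1, its largest platform subunit. cdc27, on chromosome 3 from 21905564 to 21924945, was at 138, 123 and 125 in haploid, 130, 121 and 179 in tetraploid and 130, 122 and 120 in diploid libraries. It stood 19.5 to 27.5 times above anapc1 in 8 libraries and 44.6 times in tetraploid replicate 3, and 10.1 to 16.5 times above cdc23, another scaffold arm. anapc16, a small subunit, was at 77.7, 79.8 and 83 in haploid, 67.8, 72.6 and 133 in tetraploid and 78.4, 93.5 and 87.1 in diploid libraries. For both genes tetraploid replicate 3 was the highest of the 9 and the groups overlapped.

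anapc10, on chromosome 23 from 43916596 to 43922406, encodes a subunit that helps the ligase hold its substrates. It was at 40.4, 33.9 and 32.7 in haploid, 30.6, 31.2 and 4.37 in tetraploid and 29.2, 32.9 and 38.2 in diploid libraries. The tetraploid libraries were all below the haploid ones, the third of them far below. The tetraploid minus haploid difference was -1.05 ± 0.57 (log2, SE; limma adjusted p = 0.686), and -0.19 without tetraploid replicate 3. The authors' deposited table gives 85.24 FPKM in haploids, 51.64 in tetraploids and 79.53 in diploids for anapc10. With 1 pooled value per ploidy, it does not show the level without tetraploid replicate 3. anapc13, another small subunit, is given per library for its spread, seen first: it was at 27.4, 17.8 and 19.2 in haploid, 41.8, 43.2 and 9.13 in tetraploid and 21.4, 37.9 and 14.3 in diploid libraries. Again 2 tetraploid libraries were the highest and the third the lowest. The tetraploid minus diploid difference of anapc13 was 0.17 with all libraries and 0.88 without tetraploid replicate 3.

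A last group was taken in by name alone. MAD2L2, a translesion synthesis and checkpoint-related protein gene, was at 25.6, 26.2 and 26.1 in haploid, 21, 26.7 and 16.5 in tetraploid and 28.5, 23.5 and 28.8 in diploid libraries. aurkaip1, whose product binds Aurora A and is also known as a mitochondrial ribosomal protein, was at 76.4, 57.1 and 76.8 in haploid, 75.8, 75.6 and 68 in tetraploid and 92.2, 69 and 75.4 in diploid libraries. cdca4 was at 22.3, 34.8 and 24.2 in haploid, 19, 23.8 and 18.3 in tetraploid and 22, 22.9 and 27.4 in diploid libraries. Groups overlapped for all 3 genes in every comparison.

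**Figure D3:**
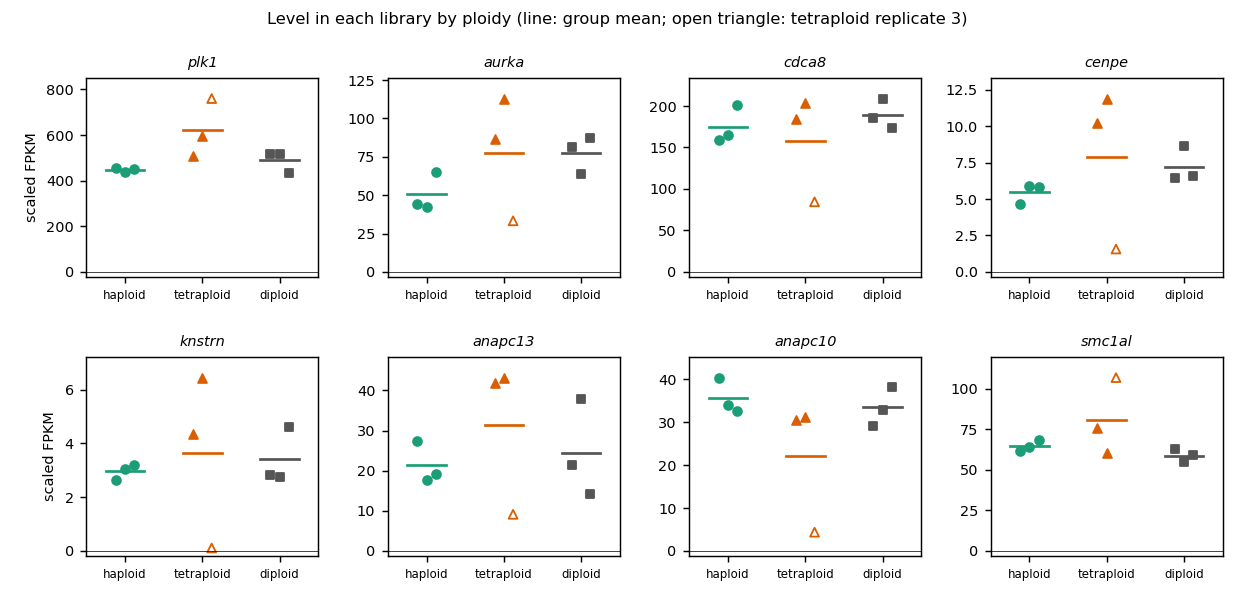
Scaled FPKM of 8 genes in each library, haploid and tetraploid beside diploid, with a line at the group mean and tetraploid replicate 3 as an open triangle. plk1 and smc1al have this library as their highest (760 and 107), and cdca8, aurka, cenpe, knstrn, anapc13 and anapc10 have it as their lowest.

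Haploid embryos were set against diploid ones, which have more genome copies. Of the 36 measured genes, 0 passed at an adjusted p under 0.05 in limma, and 0 of 5881 genes tested did (0% called in either direction). At an unadjusted p under 0.05 there were 0 of these genes and 81 genes tested (1.38%). In the fit without tetraploid replicate 3 there were 2, ncaph and aurka (3.36% of genes tested). The difference was positive for 11 of 36 genes, against 48.9% of genes tested. The median difference was -0.08 (log2), against -0.01 for all genes tested. By role, all 4 inner kinetochore, all 3 Aurora and passenger and both Polo-like genes were at or below 0, and smc6 was at -0.01. Above 0 were 4 of 6 condensin, 2 of 3 cohesin, 1 of 2 checkpoint, 2 of 7 APC and 1 of 5 outer kinetochore genes, and 1 of 3 taken in by name. None of these differences passed the test. Libraries did not overlap for 1 gene higher in haploids, ncaph (4.66% of genes tested), and for 2 lower in haploids, cenpe and cenpn (3.93%). Since these are whole embryos, fewer cells of a type and less RNA per cell cannot be told apart, and FPKM, a share of each library, does not show the amount of RNA per embryo.

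Tetraploid embryos were set against diploid ones in the same fit. Again 0 of 36 genes passed in limma, where 1 of 5881 genes tested did, lower in tetraploids (0.017% called; 0% called higher). At an unadjusted p under 0.05 there was 1 of these genes, smc2, and 288 genes tested (4.9%). There were 4 without tetraploid replicate 3, namely cenpe, anapc13, anapc16 and ncapg2 (4.6% of genes tested). The difference was positive for 17 of 36 genes against 49.4% of genes tested, and the median was -0.02. With FPKM as deposited, where the median of all genes tested shifted to -0.11, it was positive for 11 of 36. The smallest adjusted p among these genes was 0.833. The range was -0.96 (anapc10) to 0.42 (smc1al), and 36 of 36 were within 2-fold (98.4% of genes tested). Without tetraploid replicate 3 these 2 genes were at -0.10 and 0.20. Libraries did not overlap for 3 genes higher in tetraploids, smc2, ncaph and cenph (5.48% of genes tested), and for 0 lower (6.02%). Without tetraploid replicate 3 there were 5 higher, with cenpe and anapc13 added (11.1% of genes tested), and 2 lower, anapc16 and ncapg2 (12.2%).

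Tetraploid and haploid embryos span the widest difference in genome dose. Here too 0 of 36 genes passed in limma, where 1 of 5881 genes tested did, lower in tetraploids (0.017% called; 0% called higher). At an unadjusted p under 0.05 there were 3 of these genes, plk1, spc24 and cenph, and 454 genes tested (7.72%). There were 7 without tetraploid replicate 3, among them plk1, cenpe, knstrn, bub1ba, anapc13 and aurka (9.82% of genes tested). The difference was positive for 24 of 36 genes against 49% of genes tested, with a median of 0.09 against -0.01 for all genes tested. With FPKM as deposited it was positive for 17 of 36, with medians of -0.01 and -0.09. With scaling, both Polo-like kinases, 4 of 5 outer and 3 of 4 inner kinetochore genes, 5 of 7 APC genes and smc6 were above 0. So were 2 of 3 Aurora and passenger, 2 of 3 cohesin, 3 of 6 condensin and 1 of 2 checkpoint genes, and 1 of 3 taken in by name. None passed. Libraries did not overlap for 3 genes higher in tetraploids, plk1, cenpn and spc24 (7.24% of genes tested), and for 1 lower, anapc10 (6.53%). Without tetraploid replicate 3 there were 9 higher, with cenpe, knstrn, bub1ba, anapc13 and aurka among those added (13.6% of genes tested), and 3 lower, anapc16, stag2b and anapc10 (14.1%). In that fit cenpe (0.91 ± 0.19) and aurka (0.99 ± 0.22) had unadjusted p of 0.00108 and 0.00184 in limma, with an adjusted p of 0.393 for each. The 3 comparisons share libraries, so their directions are not independent.

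**Figure D4:**
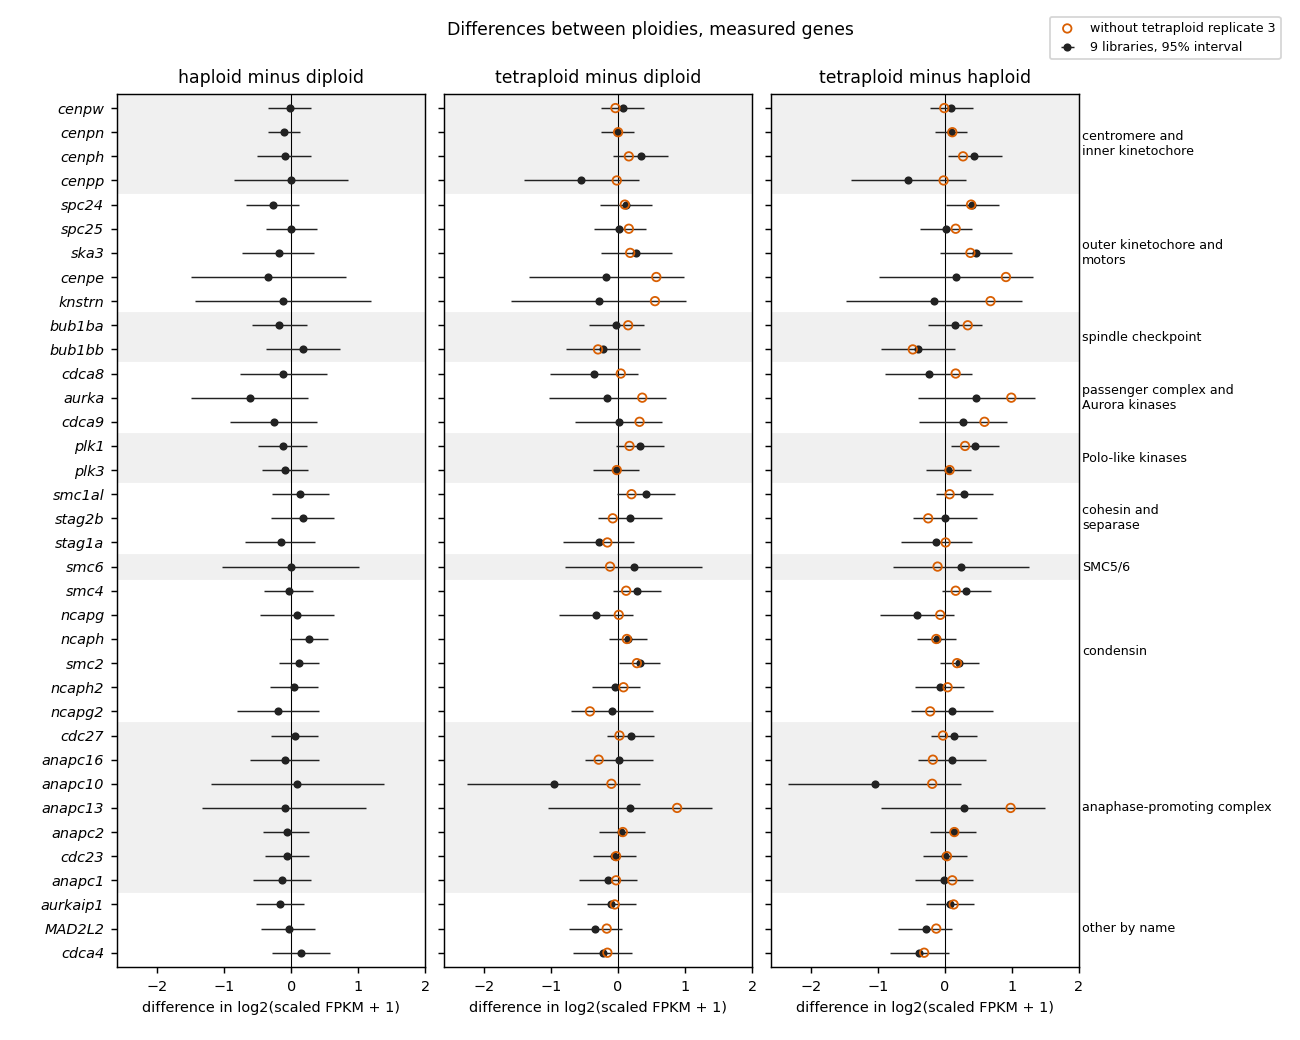
Difference in log2(scaled FPKM + 1) of the 36 measured genes in each comparison, with 95% intervals from the 9-library fit, and open circles for the fit without tetraploid replicate 3. Most intervals cross 0 (the median half-width is 0.43), and the circles shift farthest for anapc10, knstrn, cenpe, anapc13, cenpp and aurka in the tetraploid comparisons.

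Tetraploid replicate 3 departed more than the other libraries did, both in this machinery and over all genes tested. It was the lowest of the 9 libraries for 16 of 36 genes (44.4%; 28.9% of genes tested) and the highest for 12 (33.3%; 29%). Its median absolute log2 departure from the median of the 9 libraries was 0.537 for these genes. The other libraries had 0.0226 (haploid replicate 3) to 0.142 (haploid replicate 2). Over all genes tested the other libraries had 0.0965 to 0.2, and tetraploid replicate 3 had 0.39. In 8 of 36 genes (22.2%) it was over 2-fold below the median of the other 8 libraries, against 14.4% of genes tested: knstrn, anapc10, cenpp, cenpe, anapc13, aurka, cdca8 and ncapg. By fold they were lower by 28.6, 7.5, 4.43, 4.13, 2.67, 2.2, 2.19 and 2.06 times. It was over 2-fold above that median in 1 of 36 genes (2.78%), against 4.97% of genes tested. This gene was smc6, at 2.2 times, followed by smc1al at 1.73, anapc16 and ncapg2 at 1.68, stag2b and cenph at 1.62, plk1 at 1.58, smc4 at 1.51 and cdc27 at 1.44. Genes of 1 complex were on both sides: cdc27 and anapc16 of the APC were above and anapc10 and anapc13 below. Among condensin genes, smc4, which both condensins use, and ncapg2 of condensin II were above, and ncapg of condensin I was below. The part of its lower scaling factor and mitochondrial share in these departures was not tested.

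**Figure D5:**
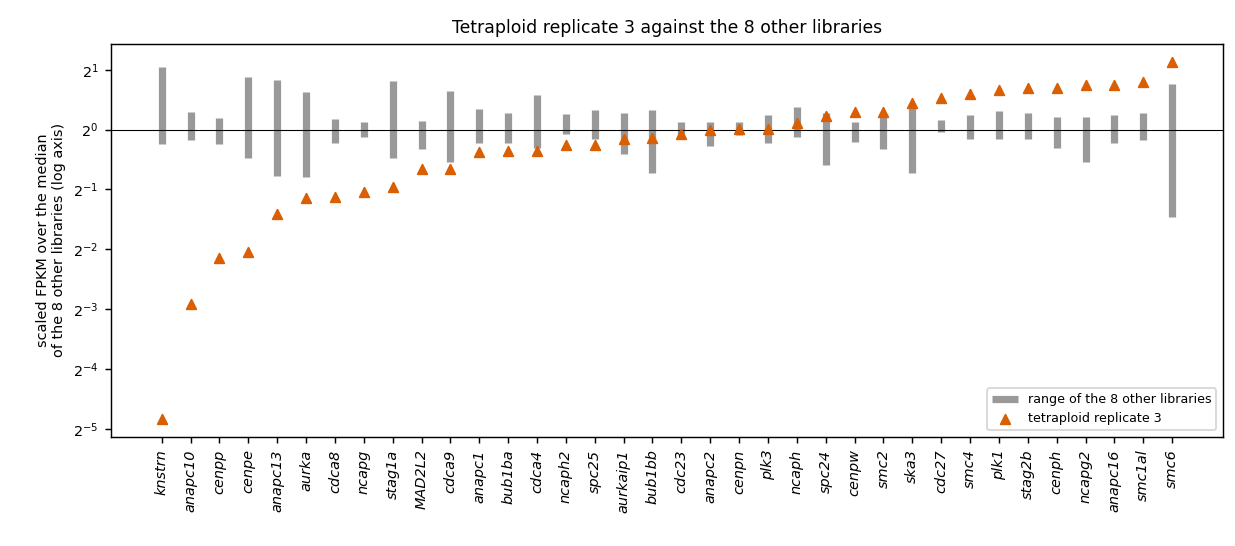
Level of each of the 36 genes in tetraploid replicate 3 over its median in the other 8 libraries (log axis), with the range of those 8 libraries around their own median. A total of 16 genes lie below that range and 12 above it.

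A further list held genes of the same machines and of mitosis and chromosomes more widely, such as cdk1, wee2, top2a and hells. Its 71 names matched 60 loci that the symbols above do not take in, and 29 of these loci were measured. They include wapla and waplb, which release cohesin, esco2, which acetylates it, pttg1 (securin), dsn1 of the kinetochore, birc5b (survivin) and the mitotic cyclins ccnb2 and ccnb3. None of the 29 passed in any comparison in limma, where 0 or 1 of 5881 genes tested did in each. The median difference was -0.08 for haploid minus diploid, 0.12 for tetraploid minus diploid and 0.16 for tetraploid minus haploid, with 11, 18 and 18 of 29 positive (48.9%, 49.4% and 49% of genes tested). Without tetraploid replicate 3 the medians were -0.08, 0.14 and 0.18. At an unadjusted p under 0.05 there were 1, 2 and 5 of them (1.38%, 4.9% and 7.72% of genes tested), and 3, 4 and 7 without that library (3.36%, 4.6% and 9.82%). The 5 for tetraploid minus haploid were fbxo5 (0.74), birc5b (0.71), ccnb3 (0.71), trip13 (0.54) and kif2c (0.51), none with an adjusted p under 0.551. Without that library these were 0.90, 0.56, 0.73, 0.64 and 0.61 in the same order, with adjusted p of 0.393 to 0.415 in limma. fbxo5 encodes the APC inhibitor Emi1, and trip13 a remodeller of checkpoint proteins. ccnb3, added after its values were seen, was at 8.01, 5.21 and 8.28 in haploid, 11.4, 13.2 and 11.8 in tetraploid and 11.8, 11.5 and 9.58 in diploid libraries. Every haploid library was below all others. The share of genes tested with every haploid library below every diploid one, a looser condition, was 3.93%, and the share below both other ploidies was not counted. Its haploid minus diploid difference was -0.57 ± 0.19 (log2, SE; unadjusted p = 0.0164 in limma) and did not pass after adjustment.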

How the data were processed

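The authors deposited a gene table per library with FPKM values and their interval bounds. Per the submitters' processing notes, which name no order or role, HISAT2, Cufflinks, Cuffdiff, Trim Galore and FastQC were used with the build GRCz10. Neither versions nor annotation nor strand setting were given in the sources used here. Another pair of tables deposited by the authors holds 1 pooled FPKM per ploidy. How they differ in scaling is not given, and they were used only where named. No counts were used, so the depth is unknown.

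FPKM were scaled by median-of-ratios factors. The 5881 loci with a mean FPKM of at least 1 and no failed status in any library were tested as log2(scaled FPKM + 1) with limma 3.58.1 (trend) in R 4.3.3, 9 libraries in 1 fit, two-sided, with Benjamini-Hochberg adjustment at 0.05. This scale understates changes of low genes. The script was tested on simulated data. Alternatives covered pseudocounts, scaling, filters, library weights, the libraries fitted, each library left out and a block of library sets. The genes, the further list and the role groups were chosen with earlier results of these data known. Values in every library are given for the 2 highest genes of each role and, per comparison, the 4 smallest p in each direction. cenpe, knstrn, anapc13 and ccnb3 were added after their values were seen. Coordinates are those of the files. Of the measured loci, those of cenpw, smc2 and cdca9 carry several symbols, so their reads cannot be assigned to 1 gene, and the cdca9 locus is not described in the text. Markers of other cell types and tissues came from short lists.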

Additional observations from a re-analysis of the deposited data

How the results depend on the processing

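None of the 36 measured genes passed in any of the 3 comparisons under any of the 17 alternatives. Their smallest adjusted p was 0.319 in limma, with library weights for tetraploid minus haploid. Of 408 values for 24 named differences, 406 kept their direction. The exceptions were cdca4 for haploid minus diploid, at -0.04 without haploid replicate 2 (range -0.04 to 0.26 over libraries left out), and ncapg for tetraploid minus diploid, at 0.01 without tetraploid replicate 3 (range -0.51 to 0.01). The 24 were picked for the smallest p in each direction from these same data, which favours a stable sign. Differences not picked did change sign as single libraries were left out. For tetraploid minus diploid, cenpe ran from -0.60 to 0.57 and aurka from -0.51 to 0.36. Over all genes tested, the single call for tetraploid minus diploid became 0 with a pseudocount of 5, with FPKM as deposited, with no filter, with the replicate block and with only the 6 libraries compared. The call for tetraploid minus haploid became 0 with no filter, with the replicate block and with those 6 libraries. Leaving out single libraries gave 0 to 1 calls in each comparison. limma warned that the fit with no filter is unreliable.

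The median difference for tetraploid minus diploid was -0.14 with FPKM as deposited, where the median of all genes tested was -0.11, and 0.01 with library weights. For tetraploid minus haploid it was -0.01 (all genes -0.09) and 0.05. Leaving out single libraries gave medians of -0.10 to -0.04 for haploid minus diploid, -0.06 to 0.03 for tetraploid minus diploid and 0.04 to 0.11 for tetraploid minus haploid. The comparison of libraries that do not overlap without tetraploid replicate 3 was chosen after seeing the data. For tetraploid minus diploid 5 genes were higher and 2 lower (11.1% and 12.2% of genes tested). For tetraploid minus haploid 9 were higher and 3 lower (13.6% and 14.1%). Libraries have consecutive numbers in sets, 1 to 3, 4 to 6 and 19 to 21 for replicates 1, 2 and 3 of the ploidies. Correlations of deviations were -0.11 to 0.23 for libraries of the same set and -0.13 to 0.23 for those of different sets. The replicate block therefore stayed an alternative. The causes were not tested. With 3 libraries a group, the median 95% half-width was 0.43 (log2), before any adjustment over genes tested. Larger differences also failed to pass, such as -1.05 for anapc10 in tetraploid minus haploid (limma adjusted p = 0.686). Failure to pass therefore does not show that a difference of this size is absent, and unmeasured loci give no result.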
